A study of Mus musculus with 12 samples.

Results

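Gluconeogenesis genes are described here by their histone H3 lysine 9 acetylation (H3K9ac) in mouse liver. The 8 genes were Pck1, G6pc, Fbp1, Pcx, Ppargc1a, Slc37a4, Sds and Gpt, chosen by name out of 21911 protein-coding genes. The peaks taken for each gene were those overlapping its body or the 5 kb around its start in the GENCODE M21 annotation of GRCm38 (mm10). Chromatin immunoprecipitation and sequencing (ChIP-seq) for H3K9ac had been carried out on adult livers from 2 inbred strains and their hybrids. The strain C57BL/6J (B6), which is that of the reference genome, gave 2 libraries, as did MSM/Ms (MSM), an inbred strain of wild Japanese origin. The F1 hybrids gave 1 library per cross, with a B6 mother in F1 BM and an MSM mother in F1 MB. The labels name no treatment and no transgene. Each library was 1 peak list, and the 6 matching input samples were not analyzed here.

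Gluconeogenesis is the synthesis of glucose from lactate, glycerol and amino acids, and during fasting the liver carries out most of it. It runs through the reversible steps of glycolysis and bypasses the irreversible ones with enzymes of its own, whose genes are induced by glucagon and glucocorticoids and repressed by insulin. H3K9ac is laid down at active promoters and enhancers, usually on the nucleosomes flanking the transcription start site (TSS), and the nucleosome-depleted start itself carries little of it.

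The sequences on which the results turn are the stretches just before the starts of Pck1, G6pc, Fbp1 and Ppargc1a, and an intronic stretch of Pcx. RefSeq promoters (GRCm38.p6) were found for 6 of the 8 members, which leaves Sds and Gpt. Each promoter window spanned 300 bases, of which the 250 bases before the start are printed. The 4 short motifs below were searched on both strands, and matches are in capitals. They were the cAMP response element TGACGTCA, its core TGACG, which lies inside the full element, the forkhead motif TGTTTAC and the TATA box TATAAA. Among the 32851 RefSeq promoter windows, 1.79% held TGACGTCA, 20.8% held TGACG, 3.65% held TGTTTAC and 13.6% held TATAAA. The 2 Ppargc1a sequences are shown because the gene start had no peak and an internal start did. The Pcx stretch is the middle of an MSM peak that both B6 libraries lacked, read from the B6 reference, so it does not show bases in which MSM differs.
Pck1, chr2:173152823-173153072, plus strand: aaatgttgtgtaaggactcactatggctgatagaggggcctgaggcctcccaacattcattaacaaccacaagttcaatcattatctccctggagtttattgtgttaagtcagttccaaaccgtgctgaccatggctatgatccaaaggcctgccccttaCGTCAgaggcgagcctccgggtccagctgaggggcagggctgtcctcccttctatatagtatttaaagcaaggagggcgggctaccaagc
G6pc, chr11:101367466-101367715, plus strand: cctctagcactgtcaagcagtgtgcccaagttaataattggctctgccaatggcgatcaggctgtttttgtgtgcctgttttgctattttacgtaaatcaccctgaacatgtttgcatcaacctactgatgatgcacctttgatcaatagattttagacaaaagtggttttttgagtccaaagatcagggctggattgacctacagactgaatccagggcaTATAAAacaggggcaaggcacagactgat
Fbp1, chr13:62888283-62888532, minus strand: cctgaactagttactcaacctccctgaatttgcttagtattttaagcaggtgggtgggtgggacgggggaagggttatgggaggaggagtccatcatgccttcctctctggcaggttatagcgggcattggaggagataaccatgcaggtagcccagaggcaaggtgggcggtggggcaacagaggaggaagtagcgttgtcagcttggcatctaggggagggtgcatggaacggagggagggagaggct
Ppargc1a gene start, chr5:51567726-51567975, minus strand: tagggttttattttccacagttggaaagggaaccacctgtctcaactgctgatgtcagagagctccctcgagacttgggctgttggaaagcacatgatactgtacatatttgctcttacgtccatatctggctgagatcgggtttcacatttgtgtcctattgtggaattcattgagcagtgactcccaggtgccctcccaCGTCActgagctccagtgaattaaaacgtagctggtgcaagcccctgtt
Ppargc1a internal start, chr5:51553923-51554172, minus strand: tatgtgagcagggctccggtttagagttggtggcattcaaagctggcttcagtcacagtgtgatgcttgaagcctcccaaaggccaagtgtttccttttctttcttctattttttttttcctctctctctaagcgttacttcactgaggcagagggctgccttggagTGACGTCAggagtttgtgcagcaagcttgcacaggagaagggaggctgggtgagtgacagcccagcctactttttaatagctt
Pcx intron, chr19:4599673-4599972, plus strand: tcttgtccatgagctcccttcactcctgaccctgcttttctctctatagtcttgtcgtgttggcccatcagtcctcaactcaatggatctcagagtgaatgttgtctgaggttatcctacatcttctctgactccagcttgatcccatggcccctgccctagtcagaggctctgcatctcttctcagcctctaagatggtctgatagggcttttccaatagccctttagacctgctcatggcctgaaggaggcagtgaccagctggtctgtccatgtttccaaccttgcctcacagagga

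The Pck1 window held the TGACG core on the minus strand, at −90 to −86 bp from the RefSeq start. The G6pc window held a TATA box at −29 to −24 bp. No searched motif was found in the Fbp1 window or in the Pcx promoter windows, which are not printed. Slc37a4, also not printed, held TGACG at −61 to −57 bp in the window of its start at 94 bp from the gene start. The window of its start at 247 bp, which overlaps that one, held TGACG at −214 to −210 and −82 to −78 bp. The window of its start at 1502 bp held TATAAA at −32 to −27 bp. At Ppargc1a, the window of the gene start held only the TGACG core, at −49 to −45 bp, and the window of the internal start held the full TGACGTCA at −83 to −76 bp. None of the members' windows held TGTTTAC. These are matches of letters and not measured binding sites.

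The 6 lists differed in size, and most of all within B6, with 22968 peaks in replicate 1 against 11619 in replicate 2. The MSM lists held 17310 and 17584 peaks, and the F1 lists 20173 (BM) and 13235 (MB). Fold enrichment is the linear ratio of signal over background that the authors' peak caller wrote for each peak, and its median over promoter peaks ran from 3.84 in F1 BM to 7.17 in B6 replicate 1. A missing peak cannot be told from a peak too weak for that library, since the lists hold no read counts. Hepatocyte markers (Alb, Apoa1, Ttr, Serpina1a, Fgb) had a promoter peak in all 6 libraries, 5 of 5, and by the promoter rank and the calls defined further on 3 of them (Alb, Serpina1a, Fgb) were higher in both B6 libraries, as were 18.6% of all genes. No library had a peak at any of 4 Kupffer, 3 kidney proximal tubule or 3 skeletal muscle markers, and the 3 endothelial markers together had 0 to 4598 bp of peaks. Of 3 stellate markers only Dcn had a peak, 798 bp in F1 BM, and of 3 cholangiocyte markers only Sox9, 1456 bp in B6 replicate 1.

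Of the 8 members, 7 had a promoter peak, meaning a peak within 1 kb of the gene start, in all 6 libraries. Over all protein-coding genes this held for 23.6%. The count was 6 with peaks of a −log10 q of at least 5, which leaves out Slc37a4, and 8 when the start of any transcript was allowed. The exception was Ppargc1a, and with the gene body included all 8 members were acetylated in all 6 libraries. By this wider measure, single libraries had a peak at 7303 (B6 replicate 2) to 11129 (B6 replicate 1) of the 21911 genes. The promoter percentile is the rank of a gene's highest promoter fold among the genes with a promoter peak in the same library. It removes the scale of a library's folds, but the set of genes ranked still differs. That set ran from 6123 genes in B6 replicate 2 to 9688 in B6 replicate 1. By the median of this percentile over the 6 libraries, the order was Gpt (93.8), Fbp1 (93.1), G6pc (84.9), Pck1 (80.4), Pcx (73.3), Sds (69.5) and Slc37a4 (56.4). The ranges of neighbors in this order overlapped in every case, so the order between neighbors is within the spread of the libraries. The medians include F1 BM, in which all 7 members were at 88.9 or above.

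**Figure D1:**
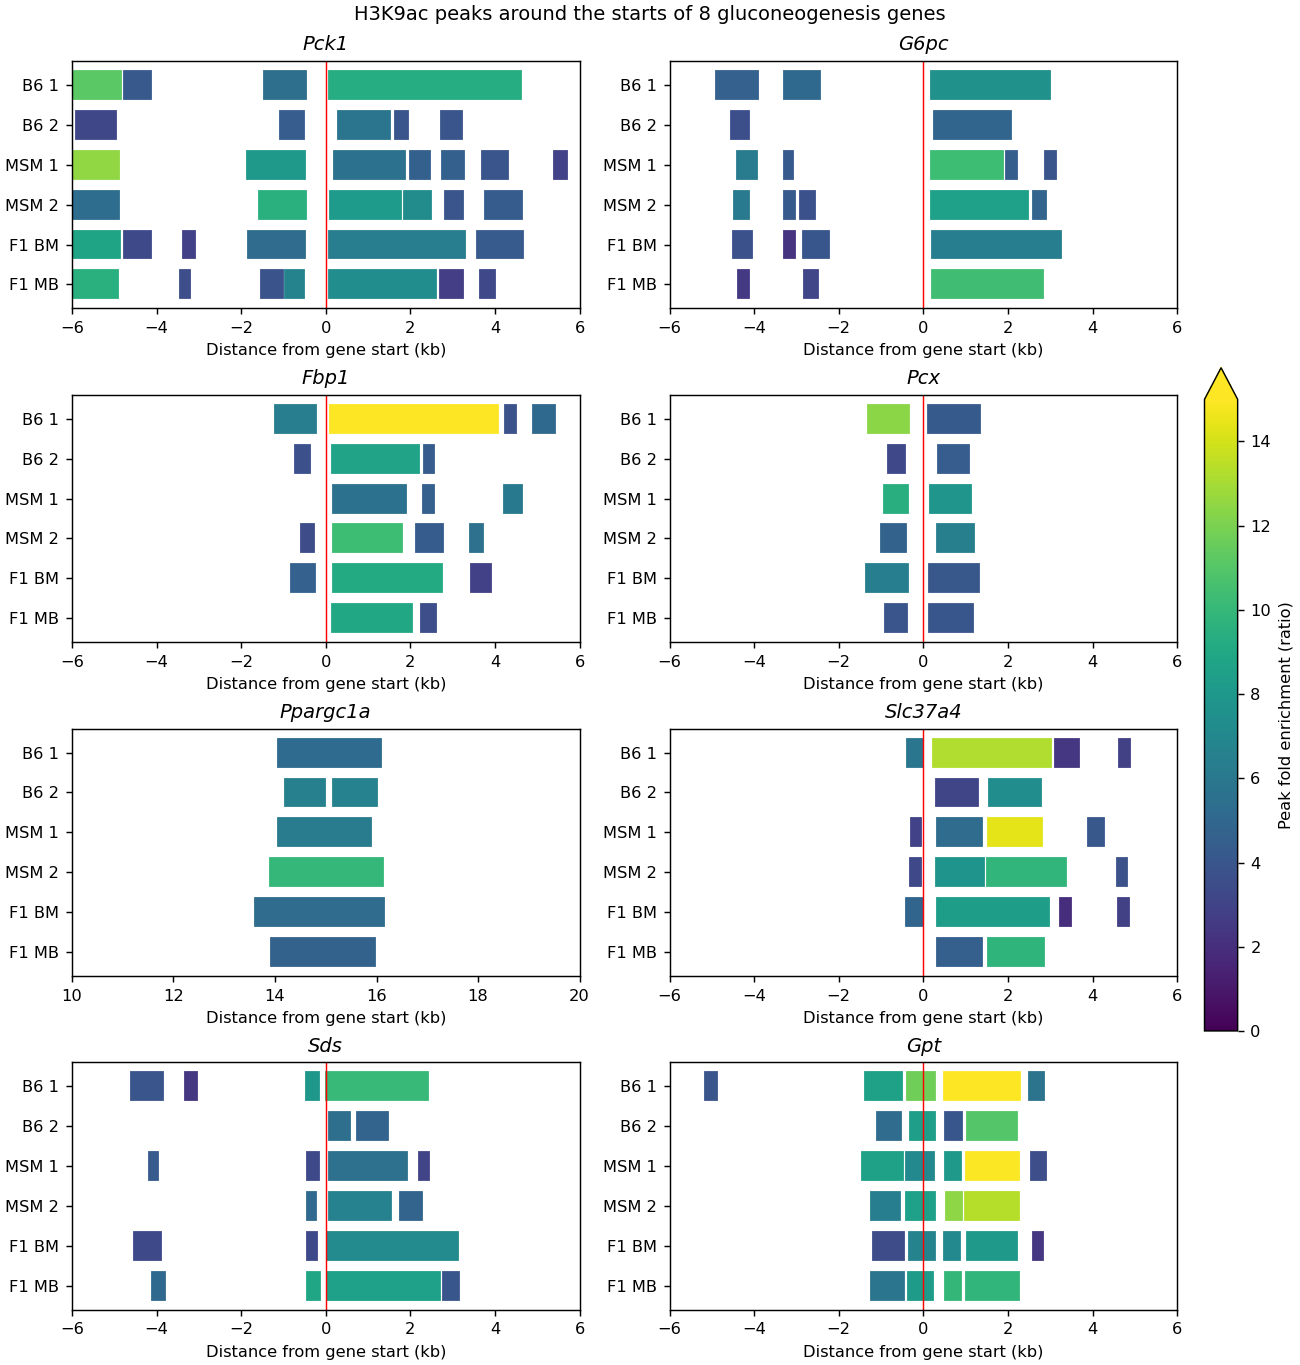
Peak maps of the 8 genes. Each bar is a peak, placed by its distance from the gene start (kb) in the direction of transcription, each row is a library, the color is the fold enrichment and the red line is the gene start. In 6 genes the start base lies outside the peaks of all 6 libraries, Gpt has a peak over its start, and Ppargc1a is drawn 10 to 20 kb downstream because no peak lies at its start.

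Gpt and Sds feed amino acid carbon into the pathway. Gpt encodes alanine aminotransferase, which turns alanine into pyruvate, and its acetylation was high in every library. The promoter fold of Gpt was 16.6 and 8.34 in B6, 8.52 and 13.4 in MSM, 7.08 for F1 BM and 9.91 for F1 MB. These values came from different peaks. In B6 replicate 1 and MSM replicate 2 a strong downstream peak reached into the 1 kb window. The corresponding peak began at 1037 bp in B6 replicate 2 and at 1004 bp in MSM replicate 1, just outside it. The promoter percentile of Gpt lay between 82.7 and 97.7, and the strains overlapped. With a window of 500 bp either side of the start, the MSM minus B6 difference in percentile moved from −5.19 to −13.2 points and Gpt was called higher in both B6 libraries, as were 18.3% of genes. This window kept the downstream peak of B6 replicate 1, which began at 490 bp. It lost that of MSM replicate 2, which began at 979 bp, so the call depends on peak edges. Gpt had 3 regions shared by all 4 parental libraries, at −1442 to −490 bp, −417 to 282 bp and 490 to 2283 bp from the start. The first of these, which gave the value of MSM replicate 1, lies over a coding exon of the neighboring gene Ppp1r16a, so it cannot be assigned to Gpt alone. In the region at 490 to 2283 bp, the fold was 16.6 and 10.98 in B6 and 14.9 and 13.4 in MSM, which overlapped. The hybrids had 8.08 (BM) and 9.91 (MB) there.

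Sds encodes serine dehydratase, which turns serine into pyruvate. Its promoter fold was 10.1 and 5.41 in B6, 5.54 and 6.58 in MSM, 7.15 for F1 BM and 8.89 for F1 MB. The strains overlapped. Its percentile lay between 44.1 and 78.3 in the parental libraries and was 93.0 in F1 BM and 91.7 in F1 MB. This difference was not tested, and F1 BM was at 88.9 or above in all 7 members with a promoter peak. The one region in all 4 parental libraries began 8 bp downstream of the start and ended at 2439 bp. Peaks at −4594 to −3858 bp, found in 1 library of each strain and in both hybrids, were nearer to the start of the paralogue Sdsl than to that of Sds.

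Pcx encodes pyruvate carboxylase, the mitochondrial enzyme that makes oxaloacetate from pyruvate. It had the longest acetylated length of the members, the number of bp covered by peaks in the gene body and the 5 kb around the start. This length was 9442 and 3450 bp in B6, 8513 and 11378 bp in MSM, 14413 bp in F1 BM and 7018 bp in F1 MB. The gene is long, and the measure does not correct for that. Its promoter fold was 12.4 and 4.36 in B6, 9.48 and 6.41 in MSM, 6.34 for F1 BM and 4.03 for F1 MB, with no separation of the strains. This value came from an upstream peak in some libraries and a downstream peak in others. In the upstream region, at −1297 to −341 bp, the strains overlapped. The downstream region, at 108 to 1341 bp, had 4.21 and 4.36 in B6, 7.84 and 6.41 in MSM, 4.09 in F1 BM and 4.03 in F1 MB. There both MSM libraries were above both B6 libraries, which was not tested.

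Beyond its start, Pcx was acetylated along its introns and at internal starts. An annotated pair of internal starts at 83874 and 83936 bp had a peak within 1 kb in all 6 libraries. The fold of the region there, at 83911 to 85362 bp, was 8.24 and 4.94 in B6, 7.34 and 6.28 in MSM, 6.47 in F1 BM and 6.0 in F1 MB. Downstream of it the strains parted. From 86 to 91 kb (chr19:4596472-4601472, intronic), peaks covered 0 bp in both B6 libraries and 1884 and 2503 bp in the MSM libraries. The hybrids had 3166 bp (BM) and 1054 bp (MB) there. The difference of 2194 bp (SD 0 in B6 and 438 in MSM, n = 2) was larger than the spread between replicates, but the stretch was chosen after its values were seen and was not tested. B6 replicate 1, which had the longest list, lacked these peaks as well. With every list reduced to its 11619 strongest peaks, the difference was 694.5 bp, and with lists of equal covered length it was 358 bp.

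Pcx held all 6 of the members' MSM-specific regions, which are regions with a peak in both MSM and neither B6 library. One lay at 35955 to 36326 bp and the other 5 between 85441 and 90412 bp, all in introns, with folds between 3.03 and 5.42 in MSM. The gene start nearest to the latter 5 was that of Lrfn4, which lies inside the Pcx locus, 14958 to 19298 bp from the middle of the regions. The internal Pcx transcript starts at 83874 and 83936 bp lie closer to them. F1 BM had a peak in 6 of them and F1 MB in 2, those at 89022 to 89819 bp and 90063 to 90412 bp. The printed Pcx stretch comes from the first of these 2. Soft-masking, which marks known repeats, covered 8.77 to 53.0% of the 6 regions (median 20.8%) against 4.46 to 37.5% (median 12.5%) of the 6 Pcx regions found in all 4 parental libraries. MSM reads were mapped to the B6 sequence, and the part of repeats and mapping in these differences was not tested.

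**Figure D2:**
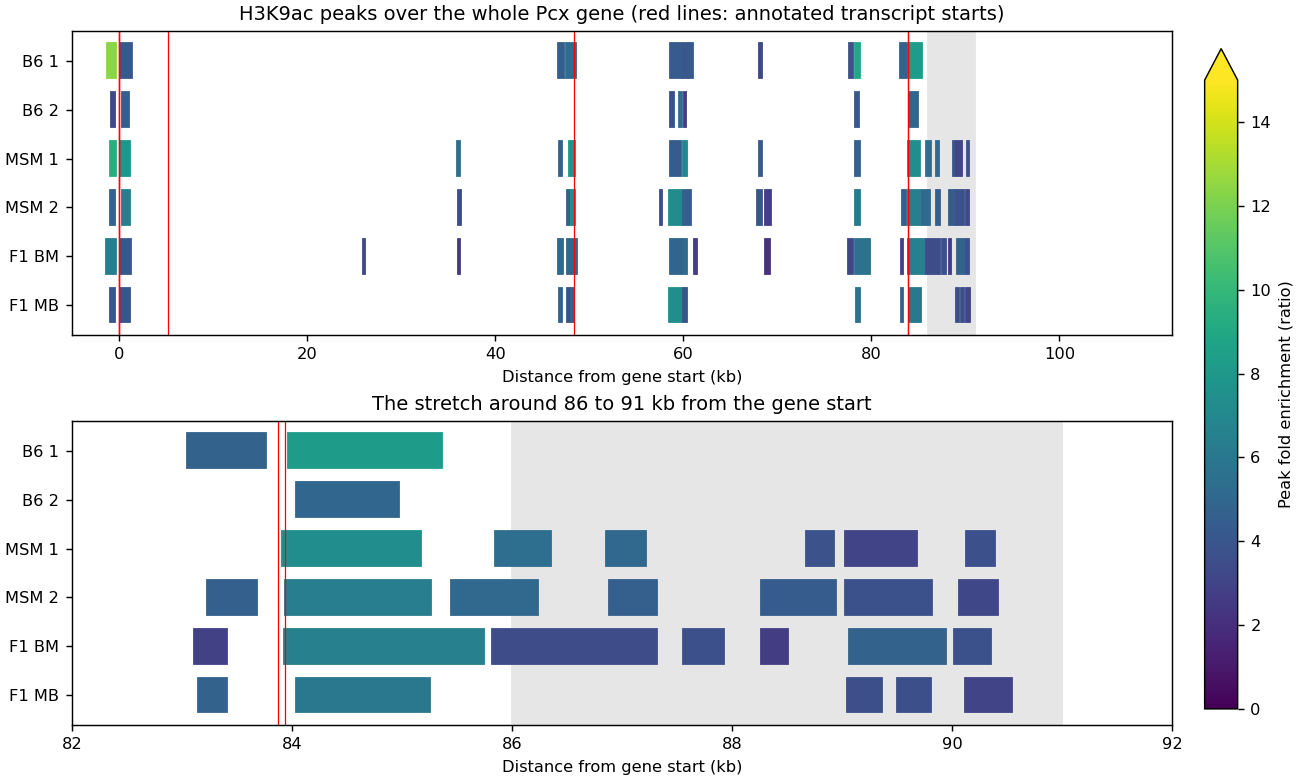
H3K9ac peaks over Pcx by distance from the gene start (kb), for the whole gene (top) and for 82 to 92 kb (bottom). Rows are libraries, color is fold enrichment, red lines are annotated transcript starts and gray shading marks 86 to 91 kb, where the B6 rows are empty and the MSM rows hold 5 peaks each.

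Pck1 encodes the cytosolic phosphoenolpyruvate carboxykinase, which converts oxaloacetate to phosphoenolpyruvate. Its promoter fold was 9.28 and 5.81 in B6, 8.07 and 9.55 in MSM, 6.33 in F1 BM and 7.35 in F1 MB. In B6 the strongest promoter peak was the one downstream of the start, and in MSM it was the one upstream. The upstream region, at −1859 to −463 bp, had a fold of 5.41 and 4.37 in B6, 8.07 and 9.55 in MSM, 5.24 in F1 BM and 6.72 in F1 MB. Both MSM libraries were thus above both B6 libraries upstream, with the hybrids above or between the B6 values and below MSM. The downstream region, at 73 to 4637 bp, had a fold of 9.28 and 5.81 in B6 and 5.6 and 8.15 in MSM, which overlapped. A further region at −6026 to −4845 bp was found in all 6 libraries, with folds from 3.20 in B6 replicate 2 to 12.5 in MSM replicate 1. Both hybrids also had a weak peak, of fold 2.84 in BM and 3.53 in MB, at −3374 to −3092 bp and −3434 to −3201 bp, where no parental library had a peak.

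Fbp1 encodes fructose-1,6-bisphosphatase, which removes a phosphate from fructose 1,6-bisphosphate. Its promoter fold was 17.8 and 8.73 in B6, 5.62 and 10.3 in MSM, 9.12 for F1 BM and 8.95 for F1 MB. The single low library was MSM replicate 1, and the folds of the strains overlapped. The region downstream of the start, which ended at 4059 bp, was found in all 6 libraries. The upstream region at −1207 to −235 bp had weaker peaks in both B6 libraries, MSM replicate 2 and F1 BM, with folds from 3.43 to 6.31.

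G6pc encodes the catalytic subunit of glucose-6-phosphatase, which releases free glucose. Its promoter fold was 7.51 and 4.81 in B6, 10.3 and 8.48 in MSM, 6.37 in F1 BM and 10.4 in F1 MB. Both MSM libraries were above both B6 libraries. In all 6 libraries this was the same region, at 175 to 3136 bp, downstream of the start. A distal region at −4903 to −3908 bp showed the same order of the parental strains. Its fold was 4.57 and 3.61 in B6 and 6.16 and 6.13 in MSM. F1 BM, at 3.75, lay between the B6 values there, and F1 MB, at 2.48, was below all 4 parental libraries. Another region, at −3288 to −2440 bp, did not show this order. Its fold was 5.06 in B6 replicate 1, 4.19 and 4.17 in MSM, 4.0 in F1 BM and 3.16 in F1 MB. B6 replicate 2 had no peak in it.

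Slc37a4 encodes the transporter that carries glucose 6-phosphate into the endoplasmic reticulum, where glucose-6-phosphatase acts. Its promoter fold was 13.2 and 3.07 in B6, 5.22 and 7.74 in MSM, 8.27 in F1 BM and 4.51 in F1 MB. This was the widest spread of percentiles among the members, from 3.81 in B6 replicate 2 to 96.2 in F1 BM. The stretch downstream of the start was called as a single peak to 3012 bp in B6 replicate 1 and to 2979 bp in F1 BM, and as separate peaks in the other 4 libraries. Over the whole region, at 230 to 3690 bp, the fold was 13.2 and 7.30 in B6, 14.4 and 9.79 in MSM, 8.27 for F1 BM and 9.76 for F1 MB. The low percentiles belong to the peak nearest the start. The region also covers the microRNA gene Mir7085.

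Ppargc1a encodes the coactivator PGC-1α, which drives the expression of Pck1 and G6pc during fasting. No library had a peak within 1 kb of its gene start, the most upstream annotated one, but all 6 had a peak within 1 kb of internal annotated starts. The only region found in the parental libraries lay at 13904 to 16124 bp, downstream of 3 annotated internal starts at 13804, 13835 and 13855 bp, and it covered a coding exon. Its fold was 5.19 and 6.57 in B6, 6.19 and 9.98 in MSM, 5.27 for F1 BM and 4.69 for F1 MB, and the strains overlapped. The acetylated length of the gene was 2021 and 1675 bp in B6, 1815 and 2221 bp in MSM, 2918 bp in F1 BM and 2043 bp in F1 MB. F1 BM had a further weak peak at 39971 to 40339 bp with a fold of 2.15.

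The TSS itself lay outside peaks at most members. Among the 7 members with a promoter peak in all 6 libraries, the start base was outside every peak in all 6 libraries in 6, against 43.8% of all genes with such a promoter peak. The exception was Gpt, whose start base was inside a peak in all 6 libraries, as in 567 of those 5166 genes. At Pck1, G6pc and Pcx a peak lay on both sides of the start in every library, and at Fbp1, Slc37a4 and Sds the upstream peak was missing in 1 or 2 libraries. At G6pc the upstream peak was distant, ending between −4117 and −2236 bp. It ended between −525 and −341 bp at Pck1 and Pcx. The downstream peak began a median of 55.5 bp after the start at Sds, 91 bp at Pck1, 148 bp at Pcx, 152 bp at Fbp1, 193.5 bp at G6pc and 303 bp at Slc37a4. Between libraries this edge was within 175 to 262 bp at G6pc, 8 to 82 bp at Sds and 103 to 181 bp at Fbp1. It was within 230 to 332 bp at Slc37a4, 67 to 287 bp at Pck1 and 108 to 345 bp at Pcx. At G6pc the RefSeq start lies 155 bp downstream of the GENCODE start, so the peak begins closer to it. The 250 bases printed for Pck1 and G6pc overlapped no peak in any of the 6 libraries.

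The design compares B6 with MSM, 2 libraries against 2, and a call here means that both libraries of a strain were above both of the other. The exact two-sided permutation test over the 6 assignments of these libraries cannot give a p below 0.333. Differences are therefore given beside the SD of the replicates. In a called member the difference cannot be smaller than the pooled SD, because the strains do not overlap, so that order adds no support to the call. By acetylated length no member was higher in both B6 libraries, against 11.6% of 11446 genes, and no member was higher in both MSM libraries, against 4.97%. Length depended on the B6 library used. Without B6 replicate 2, 6 members were longer in B6, against 84.2% of genes, and without B6 replicate 1, 7 members were longer in MSM, against 61.2%. For Pcx the MSM minus B6 difference was 3500 bp, smaller than the B6 SD of 4237 bp, and it turned to −142.5 bp when only the 5 kb around the start was used. With lists of equal peak number, Fbp1 was called longer in B6 (19.3% of genes) and Pcx longer in MSM (8.87%). At equal covered length Fbp1 was called in B6 (15.6%) and Pcx and Ppargc1a in MSM (17.5%).

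**Figure D3:**
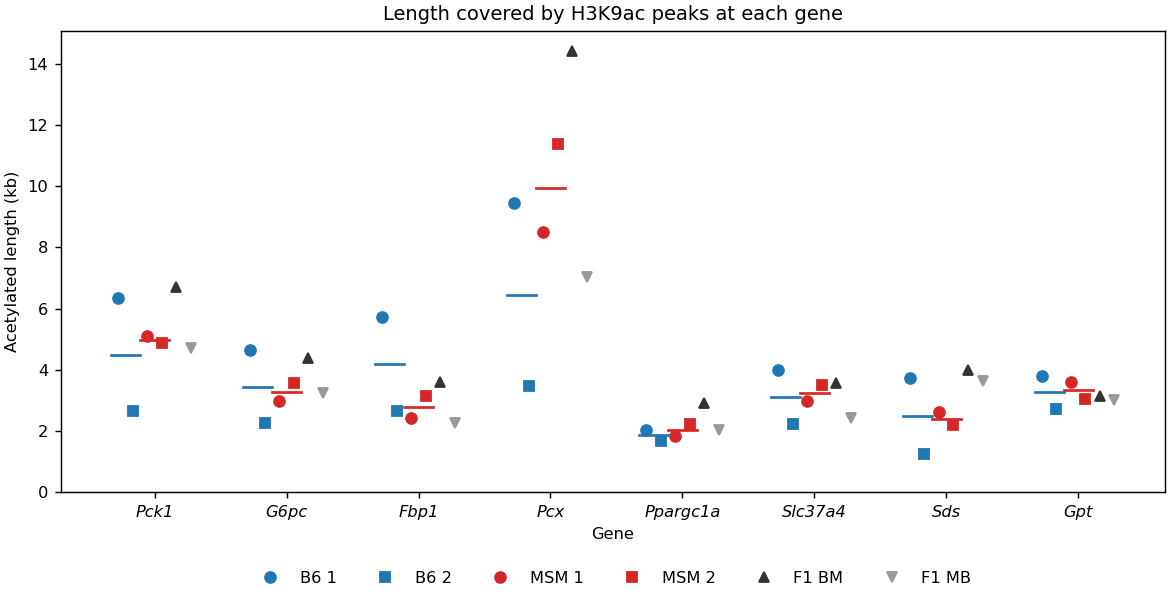
Acetylated length (kb) of each gene in the 6 libraries. Points are libraries and lines are the means of the 2 B6 and the 2 MSM libraries. B6 replicate 2 is below B6 replicate 1 in all 8 genes and Pcx reaches the greatest length, 14413 bp in F1 BM.

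By promoter fold, compared in the 7 members with a promoter peak in all 4 parental libraries, none was higher in both B6 libraries (11.2% of 5579 genes) and 1, G6pc, was higher in both MSM libraries (8.59%). G6pc had a mean fold of 6.16 ± 1.91 over the B6 and 9.39 ± 1.28 over the MSM libraries (SD, n = 2, exact permutation p = 0.333). The difference was 3.22 and the pooled SD within strains was 1.63. With a library left out, 1 library stands against 2 and the criterion is met more often. Without B6 replicate 1 the MSM count was 6 (63.5% of genes) and without MSM replicate 1 it was 2 (20.2%). The B6 count was 5 (66.9%) without B6 replicate 2 and 1 (24.0%) without MSM replicate 2.

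By promoter percentile, Fbp1 was higher in both B6 libraries, against 18.6% of genes, and Pck1 and G6pc were higher in both MSM libraries, against 16.7%. For G6pc the percentile was 53.9 and 44.8 in B6, 91.8 and 80.5 in MSM, 89.2 for F1 BM and 96.2 for F1 MB. The B6 mean of 49.3 ± 6.43 stood against an MSM mean of 86.2 ± 8.0 (SD, n = 2, exact permutation p = 0.333). The difference was 36.9 points and the pooled SD was 7.26. F1 BM was at 88.9 or above in all 7 members, so its high rank at G6pc is not particular to this gene. For Pck1 the percentile was 71.8 and 66.1 in B6, 78.5 and 86.7 in MSM, 88.9 for F1 BM and 82.2 for F1 MB. The difference was 13.7 points and the pooled SD was 4.97 (exact permutation p = 0.333, n = 2). By fold, both hybrids lay between the B6 values at Pck1.

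For Fbp1 the percentile was 98.6 and 94.3 in B6, 45.9 and 89.9 in MSM, 97.6 for F1 BM and 92 for F1 MB. The difference was −28.5 points and the pooled SD was 22.1 (exact permutation p = 0.333, n = 2). This difference rested on MSM replicate 1, since without that library it was −6.53 points. The other 4 members overlapped between the strains. The 3 called members of 7 stand beside a background of 18.6% and 16.7% for the 2 directions together, so such a count does not set the members apart. Without B6 replicate 2 the B6 count was 5 (43.5% of genes), without MSM replicate 2 it was 3 (34.0%), and without B6 replicate 1 the MSM count was 4 (43.3%). With lists of equal peak number, with lists of equal covered length and with a −log10 q of at least 5, Pck1 and G6pc were again the members called higher in MSM, against 17.1%, 18.7% and 16.2% of genes. In the B6 direction, Fbp1 and Sds were both called at equal peak number (20.3% of genes) and at equal covered length (16.1%).

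**Figure D4:**
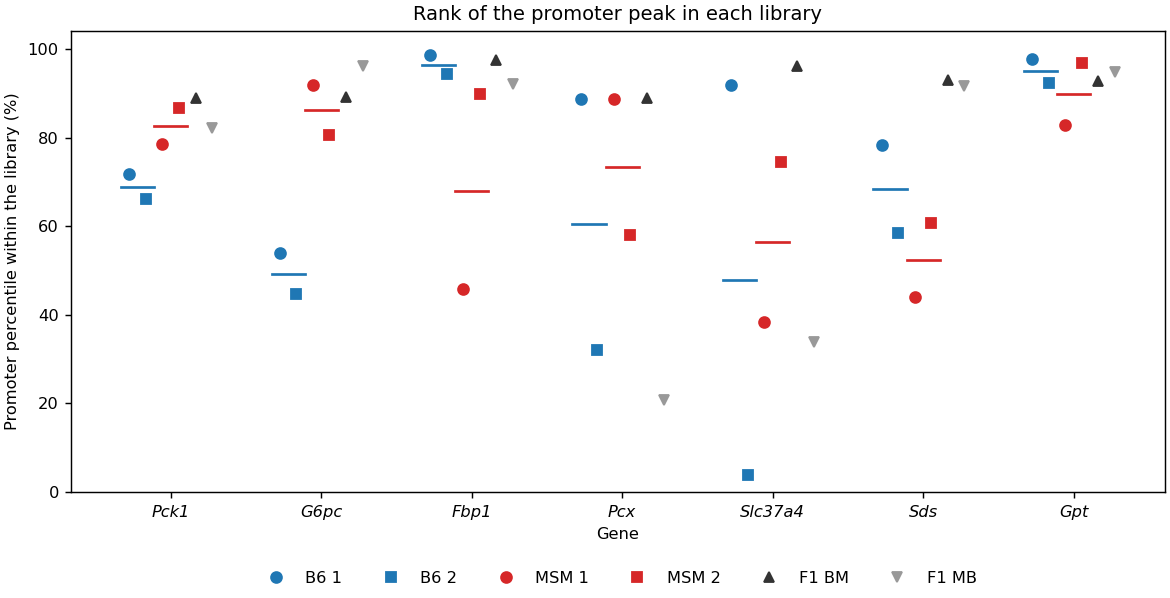
Promoter percentile (rank within the library, %) of the 7 members with a promoter peak in all 6 libraries. Points are libraries and lines are the means of the 2 B6 and the 2 MSM libraries. At Pck1 and G6pc both MSM points lie above both B6 points, and at Slc37a4 the points span 3.81 to 96.2.

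Parental peaks at the members merged into 46 regions. Of these, 18 had a peak in all 4 parental libraries, against 30.1% of 25803 regions in the genome, and all 18 also had a peak in both hybrids. No region at a member was B6-specific, against 3.29%, and the 6 MSM-specific regions at Pcx stand beside 3.38%. With the lists at equal size, there were 3 MSM-specific regions of 29 at equal peak number, against 5.59%, and 1 of 24 at equal covered length, against 6.11%. Regions of a single gene are not independent of each other. Without B6 replicate 1 the number with a peak in MSM and none in B6 was 13 of 48 (22.1% of all regions), and without B6 replicate 2, 5 of 46 regions had a peak in B6 and none in MSM (29.6%). Without MSM replicate 2 there was 1 such B6 region (5.2%).

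The genes with the promoter percentiles most like those of Pck1 over the 6 libraries were E130114P18Rik, Cpped1 and Mia2, with a mean absolute difference of 2.74, 3.27 and 3.72 points among 5165 genes. For G6pc they were Sh3gl1, Hspa4 and Cct5, at 3.82, 5.33 and 5.61 points.

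The rest of the pathway was counted in lists of 35 genes. Of the 7 paralogues, 2 had a promoter peak in all 6 libraries, beside 23.6% of all genes. These 2 were Gpt2, the mitochondrial alanine aminotransferase, and Ppargc1b. Pck2, which encodes the mitochondrial carboxykinase, the muscle bisphosphatase gene Fbp2 and the islet phosphatase gene G6pc2 had no peak in any library. G6pc3 and Sdsl were acetylated in 4 and 6 libraries, but G6pc3 had no promoter peak and Sdsl had it in 4. The 5 kb around the Sdsl start reach into Sds, so peaks at the start of Sds also count for Sdsl. In B6 replicate 2 the 1051 bp counted for Sdsl lay on Sds peaks. So at the carboxykinase, bisphosphatase and glucose-6-phosphatase steps the member had a promoter peak in all 6 libraries and these paralogues had none. Ppargc1b had a peak within 1 kb of its annotated gene start in all 6 libraries, whereas Ppargc1a had one within 1 kb of its internal starts only. Its promoter percentile was 93.5 and 94.1 in B6, 66.9 and 50.1 in MSM, 91.6 for F1 BM and 96.2 for F1 MB. It was the only paralogue called by percentile, higher in both B6 libraries, beside 18.6% of all genes. By acetylated length Gpt2 was higher in both MSM libraries, beside 4.97% of all genes, with 4148 and 2050 bp in B6 against 4695 and 4668 bp in MSM.

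Of 6 enzymes of the reversible steps, 4 had a promoter peak in all 6 libraries, beside 23.6% of all genes. Gapdh and Pgk1 lacked it in 1 library each. None of the 6 was called by percentile in either direction, and 1, Pgk1, was longer in both MSM libraries, beside 4.97% of all genes. Pgk1 had 647 and 0 bp in B6 against 677 and 738 bp in MSM. Of the 10 genes that bring carbon into the pathway, 9 had a promoter peak in all 6 libraries, beside the same 23.6%. The exception, Ldha, was acetylated elsewhere in its locus. Got2, the mitochondrial aspartate aminotransferase, and Mpc2, a subunit of the mitochondrial pyruvate carrier, were the 2 called higher in MSM by percentile, among 9 compared and beside 16.7% of all genes. By length, 2 of the 10, Ldha and Gpd1, were higher in both B6 libraries, beside 11.6% of all genes. Got2 had a percentile of 61.3 and 87.1 in B6 against 99.4 and 99.6 in MSM.

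Among enzymes that work against the pathway, 3 were counted. None of Pklr, Pfkl and Pfkfb1 had a promoter peak in all 6 libraries, beside 23.6% of all genes that did. Pfkfb1 was acetylated in its locus in all 6 libraries, over 1260 to 4758 bp. Pklr, the liver pyruvate kinase, had a promoter peak in B6 replicate 1 and both MSM libraries, at percentiles of 22.8, 59.8 and 12.8. Of the 9 hormone and transcription regulators, 7 had a promoter peak in all 6 libraries and none was called by percentile. Klf15 lay between 98.5 and 99.9, and Gcgr, the glucagon receptor, lay between 84.7 and 98.8. Hnf4a and Nr3c1, the glucocorticoid receptor gene, had no peak within 1 kb of the annotated gene start but 7082 to 12851 bp and 2967 to 6254 bp of peaks in their loci.

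**Figure D5:**
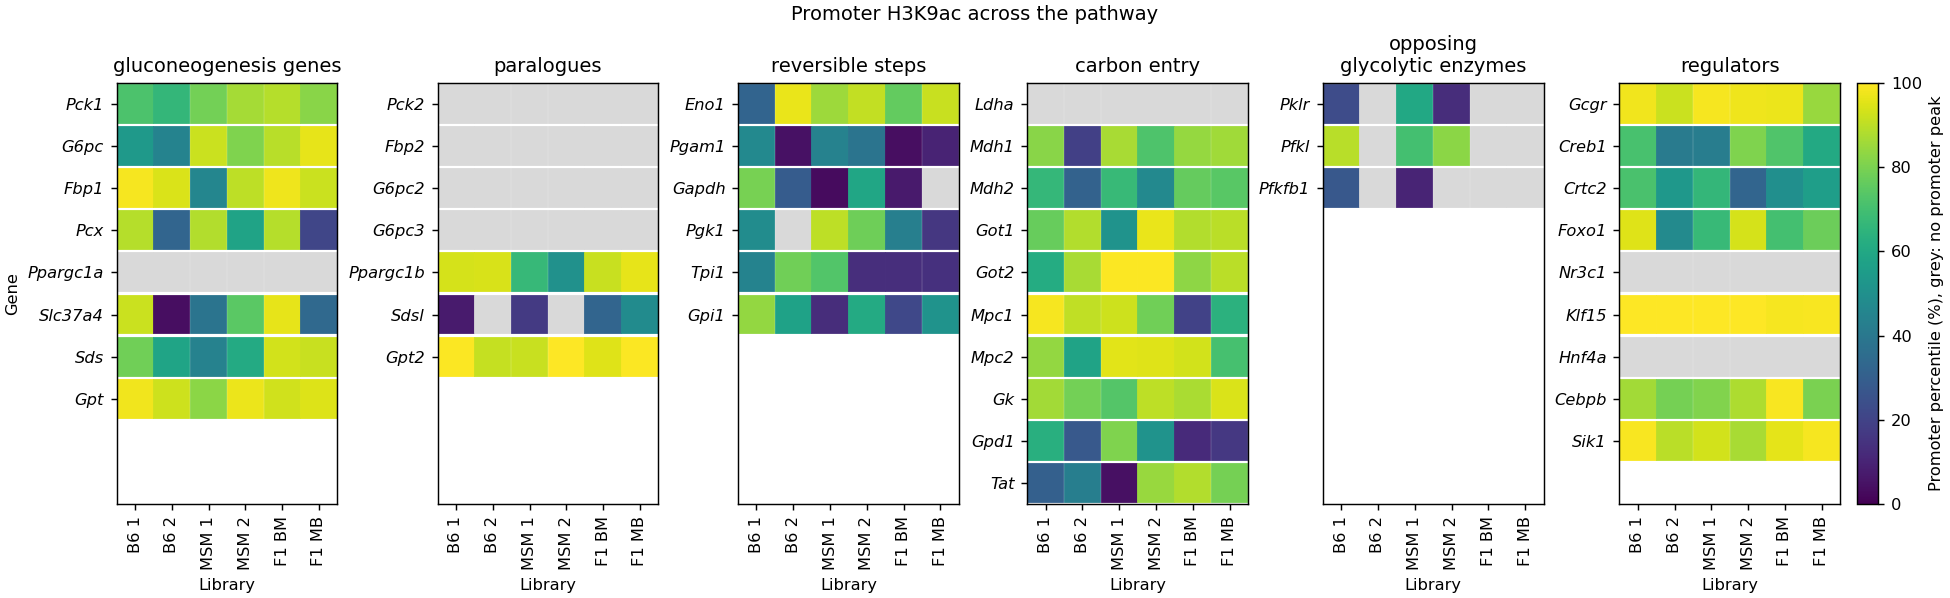
Promoter percentile (color, %) of each pathway gene (rows) in each library (columns), by list. Gray cells have no peak within 1 kb of the gene start. The members and regulators are filled in all but 1 and 2 rows, and the opposing glycolytic enzymes are gray in most cells.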

How the data were processed

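H3K9ac ChIP-seq peak lists of 6 adult mouse livers were analyzed. The authors trimmed the 50-bp read pairs with Trim Galore. The submitters' processing notes name HISAT2, SAMtools and MACS2 for mm10 (GRCm38), whereas the study's methods name Bowtie 2 as the mapper. Caller settings and the use of the input are not given in the sources used here. The deposited lists, 1 per library and not pooled, give each peak's fold enrichment, a linear ratio, and the −log10 of its p-value and q-value as the authors' caller wrote them. The lowest −log10 q was 1.30 to 1.35. The deposited score and summit offset were not used for any result. Depth was not used, because the lists hold no counts.

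Peaks were matched to GENCODE M21 genes (the longest gene per symbol) by an overlap of at least 1 bp with Python 3.11.15 and numpy 2.4.6. Acetylated length, promoter fold, promoter percentile and union regions of the 4 parental libraries were computed as the report defines them, and the functions were tested on simulated peaks. Strains were compared with a two-sided exact permutation test of single values. Figures were drawn with matplotlib 3.10.9. Groups and replicate numbers came from the sample titles. The study describes the parental libraries as separate individuals; the number of animals behind an F1 library is not given in the sources used here. All 8 members are named, other pathway genes come only from lists, of which 2 genes are not reported here, and likeness is the smallest mean absolute difference of promoter percentiles. The members and lists were chosen with earlier results of these data known. RefSeq promoters and the RefSeq copy of GRCm38.p6 gave the sequences. Alternatives were equal list sizes, a −log10 q of at least 5, an overlap of 100 bp, a promoter window of 500 bp or 5 kb, the start of any transcript, the gene body alone, the 5 kb around the start alone, a replicate block and leaving out each parental library. The 86 to 91 kb stretch of Pcx, the union regions and the gap at the start were added after the data were seen.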

Additional observations from a re-analysis of the deposited data

How the results depend on the processing

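The number of members with a promoter peak in all 6 libraries was 6 with a −log10 q of at least 5, 8 when any transcript start was allowed and 7 under the other alternatives. When every list was cut to its strongest 11619 peaks, 1 member was longer in B6 and 1 in MSM (19.3% and 8.87% of all genes), and at an equal covered length of 6.28 Mb these counts were 1 and 2 (15.6% and 17.5%). The percentile count for B6 was 2 under both of these settings and with the 500-bp window (20.3%, 16.1% and 18.3% of genes). MSM-specific regions numbered 3 at equal peak number and 1 at equal covered length (5.59% and 6.11% of all regions), and B6-specific regions 1 at equal peak number (6.31%). The Pcx difference at 86 to 91 kb was 694.5 bp at equal peak number, 358 bp at equal covered length and 1693 bp with a −log10 q of at least 5. Leaving out each parental library in turn gave 0 to 6 members longer in B6, 0 to 7 longer in MSM, 0 to 5 and 1 to 6 with a higher fold, 1 to 5 and 2 to 4 with a higher percentile, 6 to 13 MSM-specific and 0 to 5 B6-specific regions, and 1884 to 2503 bp at Pcx. These settings use fewer peaks or libraries, and the cause of the changes was otherwise not tested. A member's call can only be gained by leaving out a library, so these member counts say nothing about stability. Replicate numbers did not pair the samples (correlations of deviations −0.0226, −0.0291 and −0.0208), and with a replicate block the counts were as without it, 0 and 0 by length, 0 and 1 by fold, 1 and 2 by percentile, while the share of all genes rose to 17.2% and 8.07%, 19.9% and 15.2%, and 26.9% and 24.4%. Depth was not measured, so its part in missing peaks was not tested.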

Other observations

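Some weak peaks appeared in F1 BM alone. It had a peak in Pcx at 25936 to 26174 bp with a fold of 3.24 and at 61139 to 61466 bp with a fold of 2.73. Neither stretch had a peak in the 4 parental lists or in F1 MB, and the difference was not tested. By the percentile of acetylated length among all genes with a peak in the library, Pck1 lay between 94.6 and 98.5 and Klf15, a glucocorticoid-induced factor, had 8791 to 11292 bp of peaks in every library.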
